A study of Mus musculus with 10 samples.

Results

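The insulin-like growth factor (IGF) system was examined in differentiating mouse muscle cells after knockdown of *Fndc1*, which encodes a secreted protein with fibronectin type III domains. It was represented by 10 genes, taken by symbol from the deposited gene table of 55359 genes. They were the ligands *Igf1* and *Igf2*, the receptors *Igf1r* and *Igf2r*, and the binding proteins *Igfbp2*, *Igfbp3*, *Igfbp4*, *Igfbp5*, *Igfbp6* and *Igfbp7*. All 10 were found once and all 10 passed the filter on low values, which left 13548 genes to test. RNA-sequencing was performed on 10 libraries of C2C12 cells, an established mouse myoblast line that fuses into myotubes when serum is withdrawn. The 5 si-Control libraries came from cells that received a control siRNA and the 5 si-*Fndc1* libraries from cells that received an siRNA against *Fndc1*, at 100 nM in both groups. Both groups were then differentiated for 4 days in medium with 2% horse serum, and no other allele or agent is labelled. The methods speak of independent experiments in general, but no source ties the 5 libraries of a group to separate cultures, so the p-values below measure the spread between these libraries, which may be technical. A single cell line was used.

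IGF1 and IGF2 are small secreted hormones that bind the tyrosine kinase receptor IGF1R, which signals through IRS and SHC adaptors to the PI3K-AKT and MAPK cascades. IGF2R, the cation-independent mannose 6-phosphate receptor, has no kinase, takes IGF2 up for degradation in lysosomes and sorts lysosomal enzymes. The IGF binding proteins hold the ligands outside the cell, and proteases release the ligands from them. In skeletal muscle, IGF2 made by the myoblasts themselves drives differentiation, IGF1 promotes growth of myotubes, and IGFBP5 is produced in large amounts by C2C12 cells as they differentiate.

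Library totals ranged from 66771605 to 75995168 reads in si-Control and from 56332844 to 72839369 in si-*Fndc1*. *Fndc1* itself had between 24.7 and 29.6 FPKM (a read count scaled to transcript length and library size) in the si-Control libraries and between 18.7 and 23.5 in the si-*Fndc1* libraries, and it fell by 0.40 on the log2 scale (SE 0.066, adjusted p = 0.000934). The ratio of mean FPKM was 0.752, and with the correction for base composition and transcript length described further on the log2 fold change of *Fndc1* was -0.21 (SE 0.051, edgeR adjusted p = 0.0125). All 18 markers of differentiated muscle were detected, with a summed level of 7883 to 8351 FPKM in the control libraries and 8197 to 9069 FPKM after knockdown, and 5 of them rose and 2 fell. Of the 7 tested markers of undifferentiated myoblasts 1 rose, as did 1 of 8 markers of proliferation. By the same test, described in the next paragraph, 17.3% of all tested genes were called higher and 17.2% lower. Of 25 liver transcripts, 22 could be tested and all 22 rose in si-*Fndc1*, from a summed level of 0.328 to 9.99 FPKM in si-Control to 74.2 to 243 FPKM after knockdown, and none of the 25 was at 0 in all si-Control libraries. The 2 tested markers of blood and leukocytes and the 3 tested markers of fibroblasts did not pass the test, and no marker of adipocytes or endothelium was high enough to be tested.

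Of the 10 genes, *Igf1* rose and *Igf1r*, *Igf2r* and *Igfbp7* fell in si-*Fndc1*, by the quasi-likelihood test of edgeR, with p-values adjusted by Benjamini-Hochberg over all 13548 tested genes and a threshold of 0.05. The other 6, *Igf2* and the remaining 5 binding proteins, did not pass. These 4 of 10 stand beside 34.4% of all tested genes called in either direction, the 1 that rose beside 17.3% called higher, and the 3 that fell beside 17.2% called lower. The shares are near those of the whole table, so the count of calls is not a particular feature of the IGF genes. The median log2 fold change of the 10 was -0.04, against 0.00 over all tested genes, and the median size of the change regardless of direction was 0.16 against 0.17. In 2 of the 10, *Igf1r* and *Igfbp7*, the counts scaled to library size (CPM) of the groups did not overlap, which was the case for 25.1% of all tested genes. In bulk RNA, fewer cells that express a gene and less of its mRNA per cell cannot be told apart.

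Fold changes in these libraries were related to the base composition of the transcripts. Over 11185 tested genes with a known GC content, the Spearman correlation of GC content with the log2 fold change was -0.52, as a description across genes that are not independent and share the same libraries. It was -0.01 after the trend with GC content and transcript length had been removed in each library. With that correction 22.6% of the 11185 genes were called, and of the 10 IGF genes only *Igf1r* and *Igfbp7* were, both lower. Changes below are as counted unless they are called GC-corrected, which stands for this correction of GC content and length together. How much of a shift belongs to GC content and how much to length was not tested.

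**Figure D1:**
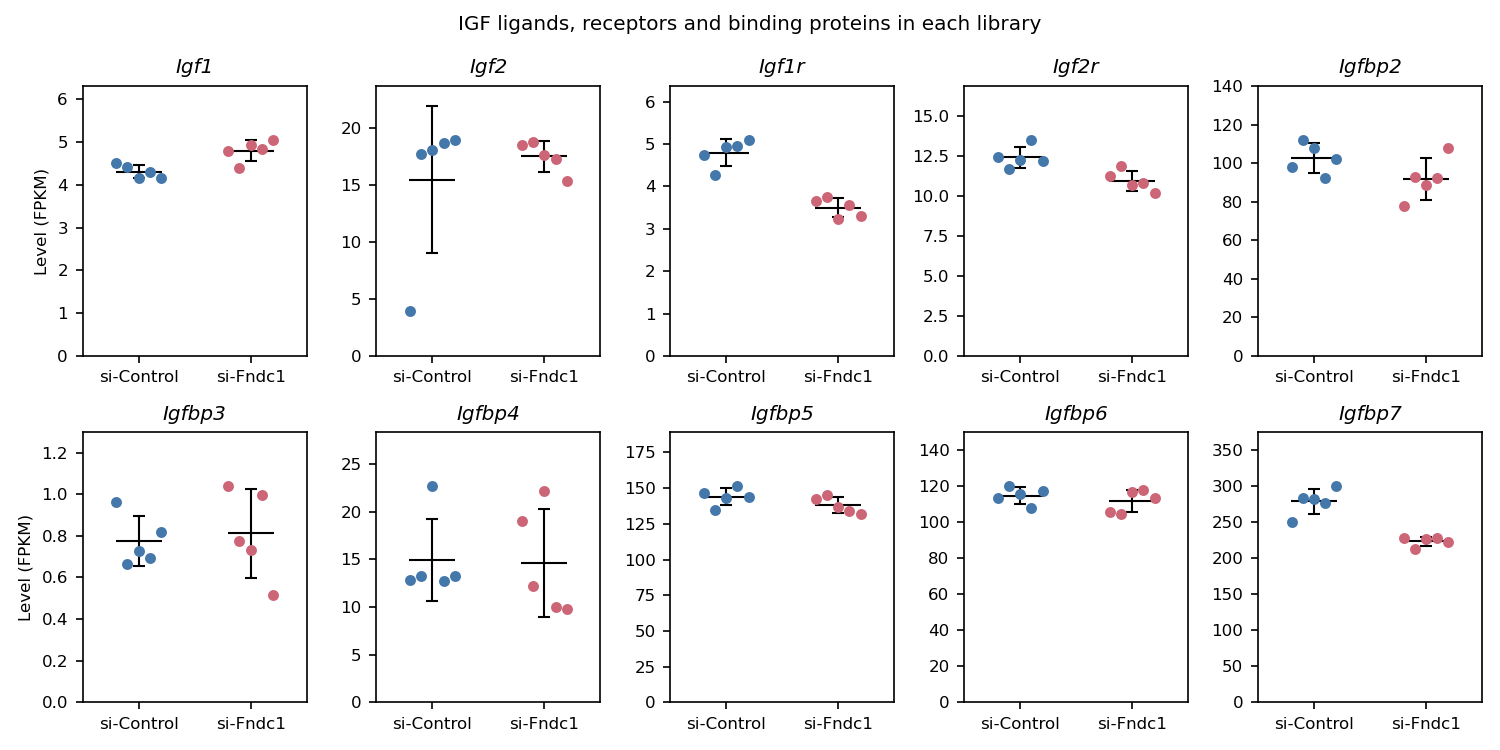
Level in FPKM (vertical axes, each starting at 0) of the 10 genes in the 5 si-Control libraries (blue) and the 5 si-Fndc1 libraries (red). Points are libraries, long bars are means and error bars are 1 SD. The groups are separate for Igf1r and Igfbp7, 1 si-Control library is far below the others for Igf2, and 3 libraries are high for Igfbp4.

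Promoter sequences are shown for the 4 genes that passed the test on the counts as deposited, of which only *Igf1r* and *Igfbp7* were called after the correction. The windows hold 300 bases around the start of transcription, as given by RefSeq for the mouse build GRCm38.p6, and are written 5′ to 3′ on the strand of the gene. Capitals mark GC boxes, the letters GGGCGG on either strand (CCGCCC on the other), to which SP1-family factors can bind, and E-boxes with the letters CAGCTG, the form preferred by myogenic factors such as MYOD. The letters of these motifs do not overlap within the windows shown.
*Igf1*, chr10:87860861-87861160, plus strand: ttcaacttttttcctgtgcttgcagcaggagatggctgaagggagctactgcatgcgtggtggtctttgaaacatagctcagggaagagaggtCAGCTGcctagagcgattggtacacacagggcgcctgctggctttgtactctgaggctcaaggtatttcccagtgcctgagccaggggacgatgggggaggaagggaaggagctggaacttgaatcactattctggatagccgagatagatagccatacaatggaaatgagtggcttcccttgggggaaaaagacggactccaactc
*Igf1r*, chr7:67952007-67952306, plus strand: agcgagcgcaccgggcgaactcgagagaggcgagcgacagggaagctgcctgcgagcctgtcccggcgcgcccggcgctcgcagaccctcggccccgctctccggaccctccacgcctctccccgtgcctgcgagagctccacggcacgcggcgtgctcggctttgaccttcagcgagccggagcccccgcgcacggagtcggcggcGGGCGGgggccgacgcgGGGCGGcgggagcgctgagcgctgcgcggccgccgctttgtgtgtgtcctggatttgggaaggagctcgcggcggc
*Igf2r*, chr17:12769657-12769956, minus strand: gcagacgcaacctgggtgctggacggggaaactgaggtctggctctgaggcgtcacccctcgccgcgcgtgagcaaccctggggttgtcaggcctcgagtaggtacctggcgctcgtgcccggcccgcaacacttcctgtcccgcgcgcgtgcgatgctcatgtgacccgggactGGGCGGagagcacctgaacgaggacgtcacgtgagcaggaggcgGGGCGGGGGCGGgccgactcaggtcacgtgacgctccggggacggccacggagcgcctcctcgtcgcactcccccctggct
*Igfbp7*, chr5:77407996-77408295, minus strand: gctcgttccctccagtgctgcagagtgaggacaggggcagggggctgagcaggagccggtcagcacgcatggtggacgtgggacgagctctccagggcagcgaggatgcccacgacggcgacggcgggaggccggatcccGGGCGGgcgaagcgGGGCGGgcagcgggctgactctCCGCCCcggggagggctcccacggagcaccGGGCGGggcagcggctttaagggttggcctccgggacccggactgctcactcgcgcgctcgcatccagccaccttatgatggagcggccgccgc

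GC boxes were found 2 times for *Igf1r*, 3 times for *Igf2r*, of which 2 abut each other, and 4 times for *Igfbp7*, the 3 genes that fell. None was found for *Igf1*, the gene that rose, whose window holds 1 E-box of this form. GC boxes are common, with at least 1 in 35.7% of 32851 mouse promoter windows of this length, and the E-box occurred in 16.3%. Among the 6 genes that did not pass, GC boxes were found in 1 of the 2 windows of *Igfbp2* and in 2 of the 4 windows of *Igf2*, and in none of the windows of *Igfbp3*, *Igfbp4*, *Igfbp5* and *Igfbp6*. A TATA motif (TATAAA, on either strand, in 13.6% of all windows) was found for *Igfbp4* and *Igfbp6*. GC content of the windows was 76% for *Igf1r*, 73.3% for *Igfbp7*, 70.7% for *Igf2r* and 52.3% for *Igf1*. The shares over all windows are not matched for GC content. *Igf1* and *Igf2r* were not called in the GC-corrected fit (edgeR adjusted p = 0.985 and 0.374). A match of letters is a description of the window, binding was not measured, and a relation of the motifs to the direction of change was not tested.

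Levels per length spanned from less than 1 to about 300 FPKM among the 10 genes. In si-Control the order by mean was *Igfbp7*, *Igfbp5*, *Igfbp6*, *Igfbp2*, *Igf2*, *Igfbp4*, *Igf2r*, *Igf1r*, *Igf1* and *Igfbp3*. Library ranges overlapped for 4 pairs of neighbours in this order, namely *Igfbp6* and *Igfbp2*, *Igf2* and *Igfbp4*, *Igfbp4* and *Igf2r*, and *Igf1r* and *Igf1*. The 6 binding proteins together reached 656 ± 23.1 FPKM in si-Control and 581 ± 9.25 in si-*Fndc1* (mean ± SD, n = 5 each). *Igfbp7* made up 42.5% ± 1.47 of that sum in si-Control and 38.5% ± 0.937 in si-*Fndc1*, and *Igfbp5* made up 21.99% ± 1.49 and 23.8% ± 1.32.

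*Igf1* (ENSMUSG00000020053, listed on the plus strand of chromosome 10 from 87694127 to 87772904) encodes the ligand made both by the liver, as a circulating hormone, and by muscle. Its level in the si-Control libraries 1 to 5 was 4.51, 4.42, 4.16, 4.30 and 4.16 FPKM. In the si-*Fndc1* libraries 1 to 5 it was 4.79, 4.39, 4.92, 4.85 and 5.05 FPKM. Of the si-*Fndc1* libraries, 4 were above every si-Control library, and the second lay within the si-Control range. The log2 fold change was 0.16 (SE 0.044, 95% interval 0.06 to 0.26, adjusted p = 0.0158).

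The transcript of *Igf1* has a GC content of 38.1%, the lowest of the 10, and the 483 tested genes under 40% had a median log2 fold change of 0.23. With GC content and length corrected for, the value for *Igf1* was 0.00 (95% interval -0.09 to 0.10, edgeR adjusted p = 0.985), within a range of adjusted p from 0.00431 to 0.996 over its 21 alternatives. Since *Igf1* is also a liver product, its level was set beside the summed liver transcripts. In si-*Fndc1* libraries 1 to 5 the liver sum was 128.9, 243.3, 241.7, 237.7 and 74.2 FPKM. *Igf1* in the same libraries was at 4.793, 4.388, 4.918, 4.845 and 5.046 FPKM. In si-Control libraries 1 to 5 the liver sum was 0.328, 2.544, 6.997, 0.4419 and 9.994 FPKM, below every si-*Fndc1* library. The part of these transcripts in the *Igf1* result was not tested.

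*Igf2* (ENSMUSG00000048583, minus strand of chromosome 7 from 142204503 to 142215607) encodes the ligand that acts on the myoblasts that make it. Its level was 3.96 FPKM in the first si-Control library and 17.7, 18.1, 18.7 and 18.9 FPKM in the other 4. After *Fndc1* knockdown it was 18.5, 18.8, 17.6, 17.3 and 15.3 FPKM. A single si-Control library was thus far below all others, and the remaining 9 lay between 15.3 and 18.9 FPKM. Over all 10 libraries the log2 fold change was 0.19 (SE 0.327, 95% interval -0.54 to 0.91, adjusted p = 0.701), and without the first si-Control library it was -0.06 (SE 0.059, 95% interval -0.19 to 0.07, edgeR adjusted p = 0.485). The GC-corrected value over all 10 libraries was 0.36 (95% interval -0.35 to 1.08, adjusted p = 0.470).

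The table also lists *Gm49394* (ENSMUSG00000115302), a protein-coding gene on the same strand from 142204506 to 142223679, which spans nearly all of *Igf2*. It held 8549 reads in the first si-Control library, where *Igf2* held 1916, so that *Gm49394* took 81.7% of the reads of the pair. In the fourth si-Control library it held 759 reads, 8.07% of the pair, and in the other 8 libraries 0 to 39 reads. Reads of the overlapping genes cannot be assigned to one of them from the counts, so their sum was also examined, a choice made after the values had been seen. The sum was 138, 113, 115, 129 and 121 CPM in si-Control (mean 123 ± 10.4, SD, n = 5) and 119, 120, 112, 110 and 97.5 CPM in si-*Fndc1* (mean 112 ± 8.99, SD, n = 5). The first si-Control library, lowest for *Igf2* alone, was highest for the sum, and the groups overlapped.

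For the sum, the log2 fold change was -0.13 (SE 0.069, 95% interval -0.29 to 0.02, edgeR adjusted p = 0.157). Left out 1 at a time, no library brought the sum past the test, with log2 fold changes between -0.165 and -0.087 and adjusted p between 0.0962 and 0.324. No difference in *Igf2* was thus detected either way, and the direction changed from higher to lower once the reads of the pair were added up. Among all tested genes, 787 (5.81%) had 1 library more than 2-fold away from every other of its group, and among genes with a mean of at least 5 FPKM, which include *Igf2*, 160 of 6924 (2.31%) had one.

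**Figure D2:**
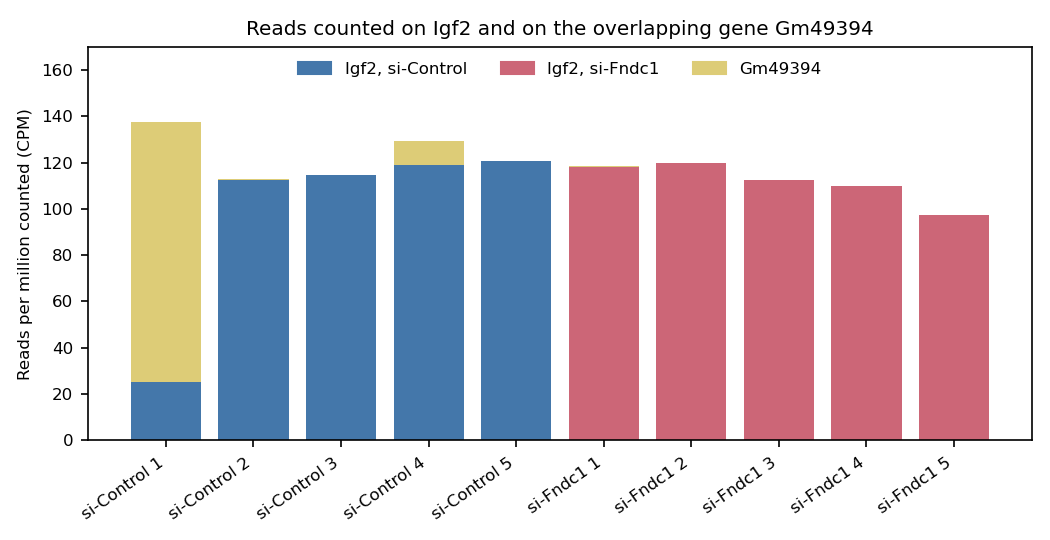
Reads scaled to library size (vertical axis, CPM) on Igf2 (blue for si-Control, red for si-Fndc1) and on the overlapping Gm49394 (yellow, stacked above) in each of the 10 libraries. In the first si-Control library most reads of the pair lie on Gm49394, and the stacked heights range from 97.5 to 138 CPM.

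*Igf1r* (ENSMUSG00000005533, plus strand of chromosome 7 from 67602575 to 67883416) encodes the receptor through which both ligands signal. It stood at 4.75, 4.28, 4.93, 4.95 and 5.10 FPKM in the si-Control libraries. In the si-*Fndc1* libraries it stood at 3.65, 3.75, 3.24, 3.56 and 3.30 FPKM. No si-*Fndc1* library reached the lowest si-Control library. The change was -0.45 on the log2 scale (SE 0.057, 95% interval -0.57 to -0.32, adjusted p = 0.000197), the largest among the 10 genes, with means of 4.80 ± 0.317 and 3.50 ± 0.224 FPKM (SD, n = 5 each).

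The GC-corrected log2 fold change of *Igf1r* was smaller, at -0.15 (SE 0.038, 95% interval -0.23 to -0.07, edgeR adjusted p = 0.0172). Adjusted p ranged from 1.03e-10 to 0.0665 over its 21 alternatives, and the correction combined with the replicate number as a block was the setting in which the call was lost. *Igf1r* has a GC content of 54.2% and the longest length of the 10 as implied by its counts and FPKM, 18679 bases, and the 2970 genes with 50% to 55% GC had a median log2 fold change of -0.06.

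*Igf2r* (ENSMUSG00000023830, minus strand of chromosome 17 from 12901293 to 12988551) encodes the receptor that clears IGF2. Its level was 12.4, 11.7, 12.2, 13.5 and 12.2 FPKM in si-Control. It was 11.2, 11.8, 10.7, 10.8 and 10.2 FPKM in si-*Fndc1*. The second si-*Fndc1* library lay above the lowest si-Control library, and the other 4 lay below all of them. On the log2 scale *Igf2r* fell by 0.17 (SE 0.049, 95% interval -0.28 to -0.07, adjusted p = 0.0186), and with GC content and length corrected it was -0.05 (95% interval -0.13 to 0.03, adjusted p = 0.374). Its 22 alternatives gave adjusted p between 0.00698 and 0.391.

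*Airn*, the imprinted noncoding RNA transcribed across the start of *Igf2r* on the opposite strand, held 267 to 468 reads per library, against 5902 to 10144 on *Igf2r*. Whether strand was used in counting is not stated, so reads of the overlap may be assigned to either gene. The ratio of *Igf2r* to *Igf1r* FPKM within a library was 2.59 ± 0.151 in si-Control (range 2.39 to 2.73) and 3.13 ± 0.103 in si-*Fndc1* (range 3.04 to 3.30, SD, n = 5 each). The groups did not overlap in this ratio, which was taken from FPKM without the correction and was not tested. As counted, the log2 fold changes were -0.448 for *Igf1r* and -0.173 for *Igf2r*, and GC-corrected they were -0.149 and -0.048. How many other pairs of genes separate in this way was not examined.

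*Igfbp7* (ENSMUSG00000036256, minus strand of chromosome 5 from 77497087 to 77555888) encodes a low-affinity IGF binding protein of the extracellular matrix and was the most abundant of the 10 genes. It stood at 251, 284, 283, 277 and 300 FPKM in the si-Control libraries. In the si-*Fndc1* libraries it stood at 228, 213, 227, 228 and 222 FPKM. The groups did not overlap, and the si-*Fndc1* libraries lay closer together than the si-Control libraries (SD 6.49 and 17.8 FPKM). *Igfbp7* fell by 0.31 on the log2 scale (SE 0.045, 95% interval -0.41 to -0.21, adjusted p = 0.000433).

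The GC-corrected value of *Igfbp7* was -0.30 (SE 0.040, 95% interval -0.39 to -0.21, edgeR adjusted p = 0.000547). It was the only one of the 10 genes called in every one of its 22 alternatives, with adjusted p from 2.7e-08 to 0.0109 and log2 fold changes from -0.46 to -0.28. Its GC content is 58.6%, and the 2343 tested genes between 55% and 60% had a median log2 fold change of -0.16. *Polr2b*, which encodes an RNA polymerase II subunit, ends within the last bases of *Igfbp7* on the opposite strand.

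**Figure D3:**
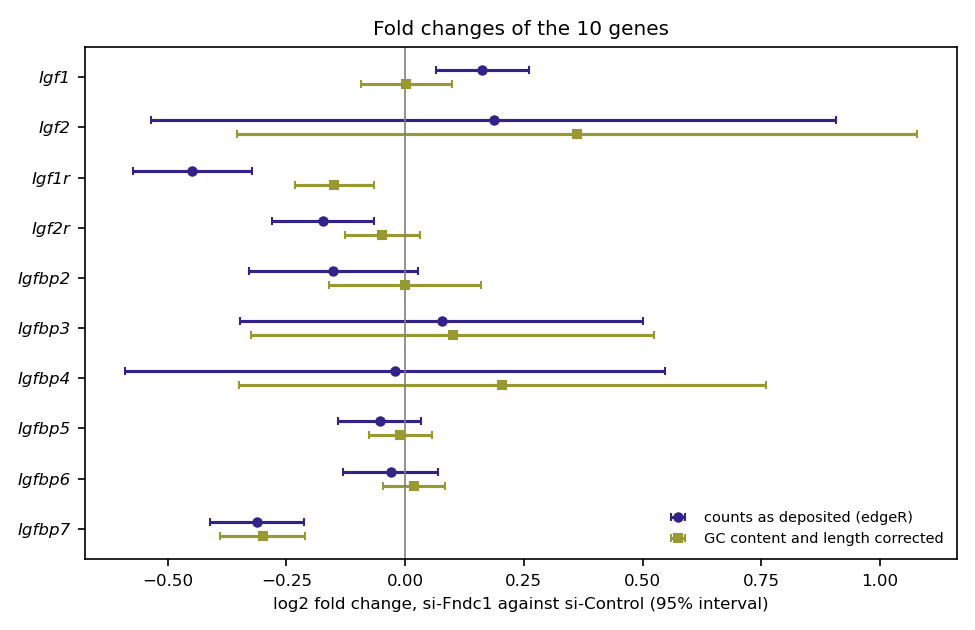
Log2 fold change of the 10 genes, si-Fndc1 against si-Control (horizontal axis), from the counts as deposited (circles) and after removing the trend with GC content and transcript length in each library (squares). Bars are 95% intervals. Igfbp7 is at -0.31 and -0.30, Igf1r moves from -0.45 to -0.15, and Igf1 moves from 0.16 to 0.00.

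*Igfbp5* (ENSMUSG00000026185, minus strand of chromosome 1 from 72897091 to 72914043) and *Igfbp2* (ENSMUSG00000039323, plus strand of the same chromosome from 72863662 to 72891633) are neighbours whose 3′ ends face each other. *Igfbp5* was second in level, at 147, 135, 143, 151 and 144 FPKM in si-Control and 142, 145, 137, 134 and 132 FPKM in si-*Fndc1*. The groups overlapped widely, and the log2 fold change was -0.05 (SE 0.040, 95% interval -0.14 to 0.03, adjusted p = 0.322). This interval was the narrowest of the 10 genes in this fit, and the GC-corrected value was -0.01 (adjusted p = 0.856), whereas quantile-normalized FPKM gave -0.17 (limma adjusted p = 0.0438).

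*Igfbp2*, which has also been tied to cell growth through the integrin-binding motif it carries, stood at 98.2, 112, 108, 92.7 and 102 FPKM in si-Control and 77.7, 93.2, 88.6, 92.5 and 108 FPKM in si-*Fndc1*. Of the si-*Fndc1* libraries, 3 lay below all si-Control libraries and the fifth lay above 4 of them. The log2 fold change was -0.15 (SE 0.080, 95% interval -0.33 to 0.03, adjusted p = 0.173). Without the fifth si-*Fndc1* library it was -0.21 and passed (edgeR adjusted p = 0.0467), and the GC-corrected value was 0.00 (adjusted p = 0.998), with adjusted p from 0.0195 to 0.998 over its 22 alternatives. *Igfbp2* has the highest GC content of the 10, 62.1%.

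*Igfbp6* (ENSMUSG00000023046, plus strand of chromosome 15 from 102052797 to 102057946) encodes the binding protein that prefers IGF2 over IGF1. It stood at 113, 120, 115, 108 and 117 FPKM in si-Control and 106, 105, 117, 118 and 113 FPKM in si-*Fndc1*, with nearly the same range in both groups. The log2 fold change was -0.03 (SE 0.046, 95% interval -0.13 to 0.07, adjusted p = 0.650), and the GC-corrected value was 0.018 (adjusted p = 0.708). *Igfbp5*, *Igfbp6* and *Igfbp2* were called lower when FPKM values were quantile-normalized before testing, with log2 fold changes of -0.17, -0.16 and -0.24, and the cause of that difference was not tested.

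*Igfbp4* (ENSMUSG00000017493, plus strand of chromosome 11 from 98932070 to 98945218) encodes a binding protein that inhibits IGF action until the protease PAPPA cleaves it. It stood at 12.8, 13.3, 22.7, 12.7 and 13.2 FPKM in si-Control. It stood at 19.03, 12.2, 22.2, 10.0 and 9.77 FPKM in si-*Fndc1*. Libraries of both groups, si-Control 3 and si-*Fndc1* 1 and 3, were well above the rest, and their counts (7915, 6612 and 7678 reads) were far from the limit of counting. *Igfbp4* had a log2 fold change of -0.02 with a wide interval of -0.59 to 0.55 (SE 0.258, adjusted p = 0.961), so the data remain compatible with a change in either direction within it. The GC-corrected value was 0.20 (adjusted p = 0.611).

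*Igfbp3* (ENSMUSG00000020427, minus strand of chromosome 11 from 7156086 to 7163923), the main carrier of IGFs in serum, was the lowest of the 10, with 102 to 257 reads per library. It stood at 0.965, 0.666, 0.729, 0.692 and 0.818 FPKM in si-Control and 1.04, 0.776, 0.730, 0.999 and 0.515 FPKM in si-*Fndc1*. *Igfbp3* had a log2 fold change of 0.08 (SE 0.192, 95% interval -0.35 to 0.50, adjusted p = 0.793), the GC-corrected value was 0.10 (adjusted p = 0.755), and the groups overlapped over nearly their whole range.

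**Figure D4:**
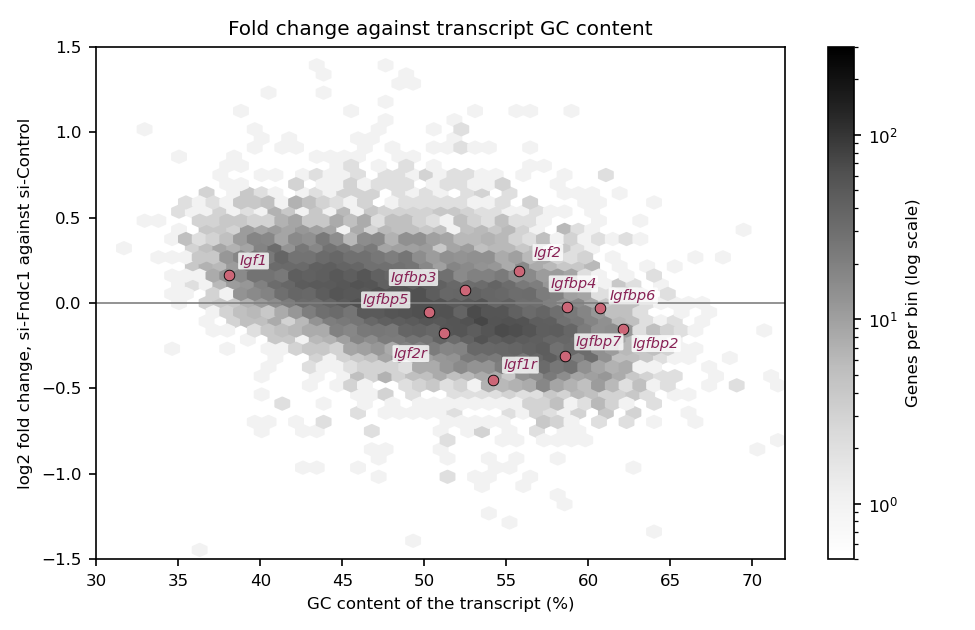
Log2 fold change, si-Fndc1 against si-Control (vertical axis), against GC content of the transcript in percent (horizontal axis) for 11105 of the 11185 genes with a known GC content. The other 80 genes are beyond the vertical range. Grey shading is the number of genes per hexagon on a log scale, and red points are the 10 IGF genes. Fold changes fall as GC content rises, and Igf1r lies near the lower edge of the genes of its GC content.

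The serum carriers *Igfbp1* and *Igfals*, both made by the liver, were not counted in any si-Control library, which allows up to 3 reads in each. *Igfbp1* had 59, 46 and 39 reads in si-*Fndc1* libraries 2, 3 and 4 and 0 in libraries 1 and 5. *Igfals* had 23, 26, 34 and 18 reads in si-*Fndc1* libraries 1 to 4 and 0 in library 5. The 3 libraries with *Igfbp1* reads were those with the highest summed liver transcripts, 243, 242 and 238 FPKM, against 129 and 74.2 FPKM in libraries 1 and 5. Both genes were below the filter on low values and were not tested, and the part of liver transcripts in them was not tested.

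Another 58 genes of the IGF system, outside the 10, were taken from 3 lists. Of these, 41 were high enough to be tested, 3 rose, 13 fell and 25 did not pass, beside 17.3% and 17.2% of all tested genes called higher and lower. By the GC-corrected fit 4 were higher and 7 lower of the 40 with a known GC content. Over all 11185 genes in that fit, 1327 were called higher and 1206 lower.

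Among 13 tested genes that act on ligands or binding proteins, 2 rose and 4 fell. *Pappa*, the protease that cleaves IGFBP4, fell by 0.40 on the log2 scale (SE 0.111, adjusted p = 0.0160), from 0.851 ± 0.0423 to 0.639 ± 0.115 FPKM (SD, n = 5 each), and its GC-corrected value was -0.38 (adjusted p = 0.0236). *Stc2*, which encodes the PAPPA inhibitor stanniocalcin 2, had a log2 fold change of -0.31 (SE 0.103, adjusted p = 0.0367). That call was lost without any 1 of si-Control libraries 3, 4 and 5 and si-*Fndc1* libraries 1, 4 and 5, with adjusted p up to 0.0844, and in the GC-corrected fit (-0.26, adjusted p = 0.0914). *Lrp1*, an endocytic receptor that binds IGFBP3 among many ligands, fell from 165 ± 7.39 to 116 ± 7.35 FPKM (log2 fold change -0.50, adjusted p = 4.4e-05), and its log2 fold change was -0.10 after the correction (adjusted p = 0.00899). *Mmp14*, a membrane-anchored metalloproteinase, fell by 0.39 on the log2 scale and by 0.22 after the correction.

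*Ctsd*, the lysosomal protease cathepsin D, which can degrade binding proteins, rose from 379 ± 9.58 to 428 ± 14.7 FPKM, with a log2 fold change of 0.18 (SE 0.033, adjusted p = 0.00170) and of 0.23 after the correction. *Vtn*, the matrix protein vitronectin, which binds IGF2 and IGFBP5, was counted at 4, 0, 12, 0 and 16 reads in si-Control and at 278, 403, 609, 465 and 112 reads in si-*Fndc1* (edgeR adjusted p = 0.000208). *Vtn* is on the list of liver transcripts as well, so its level is part of the liver sum given for *Igf1* and *Igfbp1*. The part of the other liver transcripts in this result was not tested.

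Of 5 tested genes of the *Igf2* locus and of *Igf2* mRNA or receptor handling, 2 fell and none rose. *H19*, the noncoding RNA that shares its enhancers with *Igf2* and is expressed from the opposite parental allele, stood between 991 and 1095 FPKM in si-Control and between 798 and 845 in si-*Fndc1*. It fell by 0.35 on the log2 scale (SE 0.036, adjusted p = 6.7e-05), with no overlap between groups, and it has no GC value for the correction. *M6pr*, the cation-dependent mannose 6-phosphate receptor, which sorts lysosomal enzymes beside IGF2R, fell from 25.6 ± 0.956 to 20.2 ± 0.643 FPKM, by 0.33 on the log2 scale (SE 0.037, adjusted p = 9.3e-05), and by 0.37 after the correction.

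Of 23 tested partners and adaptors of the receptors, 1 rose and 7 fell. *Irs1* fell by 0.23 (SE 0.045, adjusted p = 0.00228) and *Shc1* by 0.29 (SE 0.029, adjusted p = 5.3e-05) on the log2 scale, the main adaptors that IGF1R phosphorylates. *Ptpn11*, the phosphatase SHP2, fell by 0.20 (SE 0.028, adjusted p = 0.000411). These 3 were also the genes of this list called after the correction, with log2 fold changes of -0.13, -0.18 and -0.09. *Ptprf*, a receptor phosphatase that acts on the insulin receptor, fell by 0.41 (SE 0.101, adjusted p = 0.00961) and had -0.12 after the correction (adjusted p = 0.345).

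The calls of 3 further genes of this list were lost when single libraries were left out, and none of them was called in the GC-corrected fit. *Insr*, the insulin receptor, which pairs with IGF1R in hybrid receptors, stood at 4.69, 2.41, 4.53, 2.78 and 4.75 FPKM in si-Control and 1.88, 1.99, 1.71, 3.87 and 1.71 FPKM in si-*Fndc1*. Its groups overlapped, its adjusted p was 0.0494 with a log2 fold change of -0.77 (SE 0.273), and it was lost without any 1 of 7 libraries, all but si-Control 2 and 4 and si-*Fndc1* 4, with adjusted p up to 0.106, and its GC-corrected value was -0.68 (adjusted p = 0.10). *Irs2* (log2 fold change -0.20, adjusted p = 0.0392) was lost without si-Control 3, 4 or 5 or si-*Fndc1* 1, 3, 4 or 5, with adjusted p up to 0.0917, and its direction turned in the GC-corrected fit, to 0.16 (adjusted p = 0.0618). *Sh2b1*, an adaptor of the same receptors (-0.27, adjusted p = 0.0299), was lost without si-Control 2, 3 or 4 or si-*Fndc1* 4 or 5, with adjusted p up to 0.0692, and its GC-corrected value was -0.027 (adjusted p = 0.854). *Ghr*, the growth hormone receptor, which drives *Igf1* transcription, rose from 14.4 ± 0.579 to 16.4 ± 0.626 FPKM (log2 fold change 0.20, SE 0.037, adjusted p = 0.00212), and had 0.07 after the correction (adjusted p = 0.274).

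**Figure D5:**
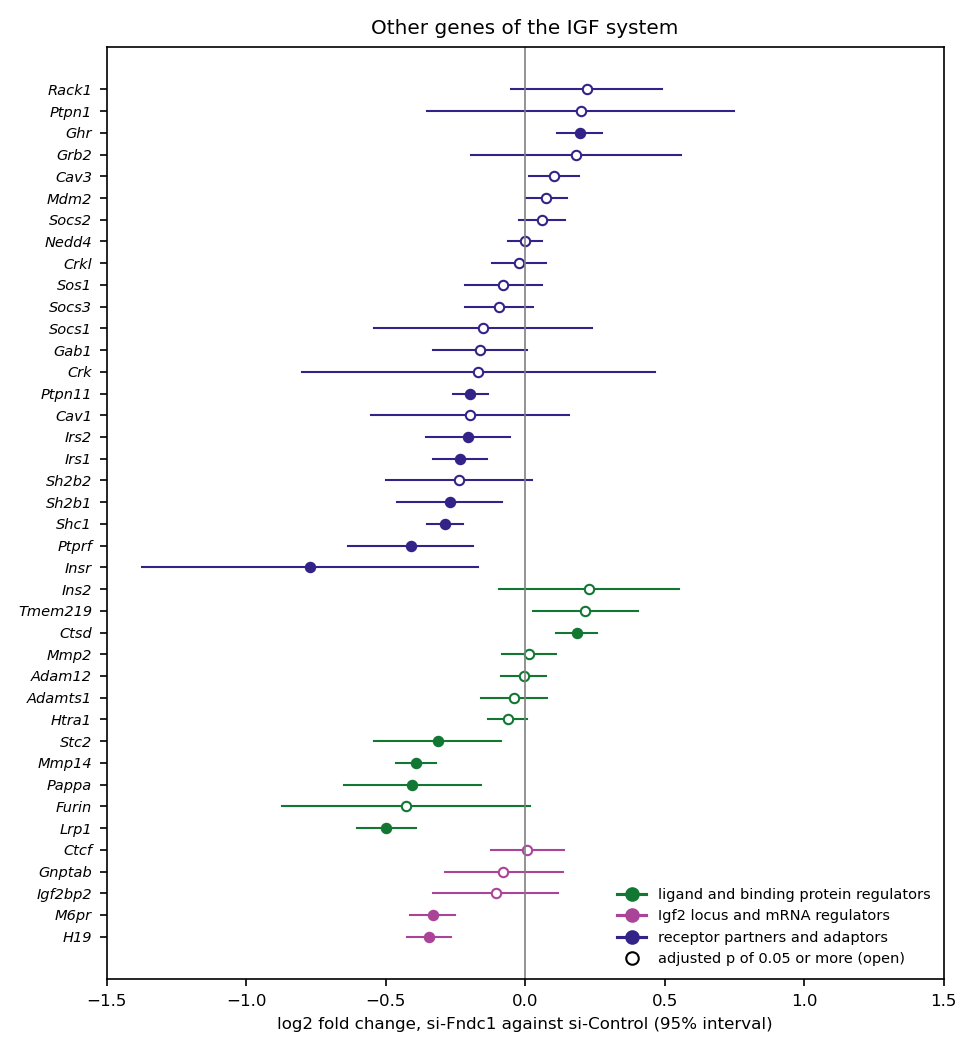
Log2 fold change, si-Fndc1 against si-Control (horizontal axis), with 95% intervals as lines, for 40 of the 41 tested genes of the 3 other IGF lists. Vtn, at 5.86, is beyond the axis. Filled points have an adjusted p under 0.05. Lrp1, Mmp14, H19, M6pr and Shc1 lie to the left of 0 with short intervals, and the long intervals belong to genes such as Insr and Crk.

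The genes with levels most like those of 3 members were taken as the highest Pearson correlations of log2 CPM over the 10 libraries, as a description. For *Igf2* they were *Zfand2a* (r = 0.988), *Pcdhb22* (0.986) and *Cbl* (0.985), with log2 fold changes of 0.14, 0.46 and 0.22 that did not pass the test. Without si-Control 1, the library in which most reads of the pair were counted on *Gm49394*, these correlations were 0.584, -0.117 and 0.224 over 9 libraries, so the likeness to *Igf2* rests on that library. For *Igf1r* they were *Stac2* (0.991), *Herc2* (0.989) and *Man1c1* (0.989), with log2 fold changes of -0.28, -0.39 and -0.26, and with r of 0.988 or more without si-Control 1. These 3 genes were called lower, as *Igf1r* was (edgeR adjusted p = 0.000193, 0.000365 and 0.000245). The difference between the groups therefore enters these correlations, and correlations within a group were not examined. For *Igfbp5* they were *Setd5* (0.978), *C2cd5* (0.976) and *Sos1* (0.971), of which *Sos1* is one of the receptor adaptors listed above and did not pass the test (log2 fold change -0.08, adjusted p = 0.370).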

How the data were processed

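RNA-sequencing of 5 si-Control and 5 si-*Fndc1* libraries of C2C12 cells was analysed, grouped by the labels. The authors deposited counts per gene without normalization, and an FPKM value beside each count, listed as 0.0001 where no read was counted. Their methods name TopHat, mm10 and htseq-count, the series description STAR and mm9, and the submitters' processing notes cutadapt 1.9, FastQC and GRCm39. The table names no build, so its coordinates are printed as listed. The sources also differ on the harvest time, the transfection reagent and the number of libraries, and all 10 were used. FPKM divides counts by length and depth, so it carries the counting of overlapping genes with it.

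Counts of genes with a mean of at least 0.5 FPKM were tested with edgeR 4.0.16 (quasi-likelihood, TMM) in R 4.3.3, with Benjamini-Hochberg adjustment over all 13548 genes. The alternatives were DESeq2 1.42.0, limma 3.58.1, other normalizations and filters, each library left out, and the replicate number as a block. Offsets for GC content (NCBIM37 transcripts) and length were a further alternative. They came from splines of 5 degrees of freedom, fitted in each library to the log of the counts with 0.5 added. Log2 CPM for the correlations also had 0.5 added. Intervals of fold changes are at 95%. On simulated counts of the same 13548 genes edgeR recovered 4 of 70 genes at a log2 change of 0.25, 30 of 58 at 0.5 and 58 of 72 at 1, and called 4 of 13348 unchanged genes. Far fewer genes were changed in the simulation than the 34.4% called in the data, which makes the adjusted threshold stricter there. The simulated rates therefore do not give the share recovered in these data.

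Counts of the 20 pairs of libraries within a group differed by more than counting error (chi-square over its degrees of freedom of 33.5 or more), so none was a copy of another. Each was counted as 1 sample, although this spread does not show that they came from separate cultures. The members and gene lists were chosen with earlier results of these data known. Named were the 10 members, *Fndc1*, every gene called from the 3 other IGF lists, and the 3 genes most like *Igf2*, *Igf1r* and *Igfbp5*. *Igfbp1*, *Igfals*, *Gm49394*, *Airn*, *Polr2b* and *Crk*, and the genes under the filter, were named after their values had been seen. Tables were handled with Python 3.11.15, pandas 2.3.3, numpy 2.4.6 and scipy 1.17.1.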

Additional observations from a re-analysis of the deposited data

Results flagged for a closer look

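In 106 groups of 5 libraries, the level was examined for 1 library far from the other 4, by a gap of more than 0.71 of the range of the group, a limit that chance passes in about 1 of 20 groups. The groups were those of *Fndc1*, of all tested genes of the IGF system (52 genes in all) and of the sum of *Igf2* and *Gm49394*. The limit was passed in 11 of 106. *Igf2* was at 3.96 FPKM in si-Control 1, with the nearest other at 17.7 FPKM, and the overlapping *Gm49394* held 8549 reads in that library. *Igfbp4* was at 22.7 FPKM in si-Control 3, with 12.7 to 13.3 FPKM in the other 4. Among called genes, *M6pr* was at 27.2 FPKM in si-Control 1, *Insr* at 3.87 FPKM in si-*Fndc1* 4 and *Ptpn11* at 32.4 FPKM in si-*Fndc1* 4. Among genes that did not pass the test, *Crk* was at 37.7 FPKM in si-Control 5 and at 9.37 FPKM in si-*Fndc1* 3, *Cav1* at 16.8 FPKM in si-Control 3, *Mmp2* at 278 FPKM and *Rack1* at 143 FPKM in si-*Fndc1* 5, and *Crkl* at 12.1 FPKM in si-*Fndc1* 2. These genes were named because of these values, and the causes were not tested.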

How the results depend on the processing

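The number of the 10 genes called, 4 in the test as reported, was 7 with quantile-normalized FPKM, 2 with a mean of at least 5 FPKM (a filter that leaves out *Igf1*, *Igf1r* and *Igfbp3*), 2 with the replicate block, 2 with the correction for GC content and length, and 1 with both. Leaving out 1 library gave 4 to 5. The count over all genes, 4663, was 2533 after the correction, 1634 after the correction with the block, 3572 with the block alone, and 4000 to 4627 without 1 library. *Igf1* was not called with the correction (0.00), with both (0.00) or with the block (edgeR adjusted p = 0.0700), where its log2 fold change stayed at 0.16. *Igf2r* was not called with the block (-0.17, adjusted p = 0.0549), with the correction (-0.05) or with both (-0.05), and *Igf1r* was not called with both (-0.15, adjusted p = 0.0665).

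Without 1 library the log2 fold change of *Igf2* was -0.06 to 0.27, of *Igfbp3* -0.024 to 0.20 and of *Igfbp4* -0.22 to 0.18. Reversals of direction were found among genes that did not pass. *Igf2* changed to -0.06 without si-Control 1, to -0.13 in the sum with *Gm49394*, and to -0.091, -0.165, -0.158, -0.117 and -0.141 in that sum without si-Control 1 to 5 in turn and -0.154, -0.161, -0.137, -0.128 and -0.087 without si-*Fndc1* 1 to 5. *Igfbp2* was at 0.00 with the correction. *Igfbp3* changed to -0.024 without si-*Fndc1* 1 and -0.007 without si-*Fndc1* 4. *Igfbp4* changed to 0.18 without si-Control 3, to 0.04, 0.09 and 0.10 without si-*Fndc1* 2, 4 and 5, to 0.20 with the correction and to 0.16 with the block as well. *Igfbp6* was at 0.018 with the correction, with and without the block. The causes of these changes were not tested, beyond the genes and libraries each setting removes.

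The replicate numbers carry no stated pairing. Correlations of same-numbered libraries' deviations from their group means were -0.04 to 0.06, 0 of 5 over 0.1, and 1 of 5 si-Control libraries correlated best with its own number. Counts per library were lowest for *Igfbp3* among the 10 genes, at 102 to 257 reads.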

Other observations

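Several IGF genes active in fetal growth were low in these cells, although *H19* and *Igf2*, described above, were not. *Igf2bp1* and *Igf2bp3*, RNA-binding proteins of *Igf2* mRNA, reached at most 17 and 197 reads in a library, and the imprinted transcription factor *Plagl1* at most 19 reads, whereas *Igf2bp2* had means of 4.94 ± 0.551 and 4.56 ± 0.588 FPKM in the groups (control first, SD, n = 5 each). *Ins1*, *Igfbpl1*, *Insrr* and *Irs4* had 0 reads in all 10 libraries, which allows up to 3 reads in each. *Ins2* was listed at 1.60 ± 0.310 and 1.86 ± 0.192 FPKM (SD, n = 5 each), a log2 difference of 0.23 (edgeR adjusted p = 0.251). *Igf2os* had 48 to 135 reads in the si-Control libraries and 49 to 102 in the others. The growth factor receptor adaptors *Grb10* and *Grb14* were below 0.3 FPKM in every library.

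Among binding protein proteases, *Pappa2* was listed at 0.485 ± 0.0813 FPKM in si-Control and 0.509 ± 0.0970 in si-*Fndc1*, under the filter on low values. *Htra1* stood at 123 ± 3.27 and 117 ± 3.71 FPKM and *Mmp2* at 250 ± 11.4 and 251 ± 14.9 FPKM (SD, n = 5 each), and neither passed the test. *Adam12* and *Tmem219*, the latter a receptor of IGFBP3, did not pass from the counts as deposited and were called higher in the GC-corrected fit, with log2 fold changes of 0.11 (edgeR adjusted p = 0.0165) and 0.27 (adjusted p = 0.0341), against -0.005 and 0.22 as deposited. *Tmem219* also passed from the deposited counts without si-*Fndc1* 2 (0.25, edgeR adjusted p = 0.0478). These genes were named after their values had been seen.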
